A study of Mus musculus with 16 samples.

Results

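Hedgehog signalling was described through 9 genes of the pathway in embryonic mouse salivary glands: the ligand Shh, the receptors Ptch1 and Smo, the coreceptors Boc and Gas1, the ligand-binding inhibitor Hhip, and the transcription factors Gli1, Gli2 and Gli3. They were taken by gene symbol as components of the pathway. All 9 were among the 48709 genes of the deposited count table, 8 were among the 23380 genes of the deposited CPM table, and the same 8 were among the 18191 genes with enough reads to be tested. Shh did not reach 6 counts in any library and is therefore given as counts.

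Bulk RNA-seq had been made from 4 groups of 4 libraries: parotid epithelium, submandibular epithelium, parotid mesenchyme and submandibular mesenchyme. All tissue came from wild type embryos of the outbred ICR strain at embryonic day 13, so no group carried an allele or a treatment that another lacked. The protocol describes glands harvested at that age, whereas the design text of the series also mentions culture for 6 days, so how long the tissue had been in culture, if at all, is not settled by the labels. Libraries held between 16912258 and 27646844 gene counts. The names of the libraries number the parotid and the submandibular ones in separate blocks of numbers. A difference in preparation and a difference between glands therefore cannot be told apart.

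Hedgehog ligands are secreted proteins that bind Patched on the receiving cell. Ligand binding relieves the block that Patched places on Smoothened, and Smoothened then acts through the primary cilium to turn the Gli factors, which otherwise act largely as repressors, towards activators. Gli1, Ptch1 and Hhip are themselves transcribed in response to the signal in many tissues, which makes their transcripts a usual readout of it, and in the mouse submandibular gland Shh is known as a signal made by epithelium that supports lobule formation.

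In outline, Shh transcripts were close to the detection limit in all 4 groups, while those of Smo, Gas1, Boc, Gli2 and Gli3 were well above it. Gli1, Gli2, Hhip and Gas1 were lower in epithelium than in mesenchyme in both glands. Between glands, Boc was higher in parotid than in submandibular tissue in both layers, Gas1 was higher in parotid epithelium, and Gli2 was higher in parotid mesenchyme. Gli3 differed in opposite directions, being higher in parotid than in submandibular epithelium and lower in parotid than in submandibular mesenchyme.

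The layers were checked with marker genes before these comparisons. The summed level of 13 epithelial markers, such as Epcam and Cdh1, was 3227 ± 225 CPM in parotid epithelium and 28.1 ± 19.3 CPM in parotid mesenchyme, and 3318 ± 219 CPM in submandibular epithelium and 51.7 ± 10.6 CPM in submandibular mesenchyme (SD, n = 4 each). CPM are gene counts scaled to a common library total and corrected for composition, and they are not divided by gene length. The summed level of 10 mesenchymal markers, such as Prrx1 and Col1a1, was 231 ± 148 CPM in parotid epithelium and 24941 ± 4181 CPM in parotid mesenchyme, and 96.8 ± 125 CPM in submandibular epithelium and 15374 ± 1153 CPM in submandibular mesenchyme. The mesenchymal sum in epithelium was thus 0.927% of that in mesenchyme for the parotid gland and 0.63% for the submandibular gland, so each tissue carried the markers of its label.

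For 6 of the 9 genes a promoter window was found in the RefSeq tables (build GRCm38.p6), and 3 of them are printed because Gli2, Hhip and Gas1 were lower in epithelium in both glands. Each run holds the 250 bases before the annotated start, written 5′ to 3′ on the strand of the gene, and all 3 genes lie on the minus strand. The capitals mark a stretch nearest in letters to the Gli binding motif GACCACCCA, searched on both strands. Where stretches tied, only the first found was marked, with the strand of the gene searched before the other. Unmarked stretches can therefore match as many letters, as in the Gli2 and Gas1 windows.
Gli2, chr1:119053620-119053869, minus strand: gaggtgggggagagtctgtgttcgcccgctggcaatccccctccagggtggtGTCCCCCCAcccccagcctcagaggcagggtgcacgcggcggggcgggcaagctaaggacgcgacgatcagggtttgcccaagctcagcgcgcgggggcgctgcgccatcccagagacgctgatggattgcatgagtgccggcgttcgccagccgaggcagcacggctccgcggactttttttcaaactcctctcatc
Hhip, chr8:80058009-80058258, minus strand: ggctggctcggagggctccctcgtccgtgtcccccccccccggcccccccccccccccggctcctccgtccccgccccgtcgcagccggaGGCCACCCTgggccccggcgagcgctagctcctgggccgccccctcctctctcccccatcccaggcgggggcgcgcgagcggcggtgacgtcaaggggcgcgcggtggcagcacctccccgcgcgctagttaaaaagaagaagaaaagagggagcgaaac
Gas1, chr13:60177536-60177785, minus strand: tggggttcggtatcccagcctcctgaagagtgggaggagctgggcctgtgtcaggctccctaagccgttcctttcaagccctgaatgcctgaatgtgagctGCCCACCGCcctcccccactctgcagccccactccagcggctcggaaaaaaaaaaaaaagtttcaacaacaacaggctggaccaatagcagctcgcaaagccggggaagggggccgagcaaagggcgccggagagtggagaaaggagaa
The complete motif was in 0 of the 6 member windows and in 74 of 32851 windows of all genes, which is 0.225%. The capitals match 7 of 9 letters for Gli2 and for Hhip, as many as 51.8% of all windows reach, and 6 of 9 letters for Gas1, as many as 98.6% reach. These windows were rich in G and C: 67.2% of bases for Gli2, 76% for Hhip and 58.8% for Gas1, beside a median of 52.4% over all windows. A match is a description of letters and not a binding site.

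Shh (ENSMUSG00000002633, GRCm38 chr5:28456815-28467256, minus strand), the ligand best known from salivary epithelium, was at the limit of what these libraries could detect. In replicates 1 to 4 it had 0, 4, 0 and 1 counts in parotid epithelium, 5, 2, 1 and 2 counts in submandibular epithelium, 0, 1, 0 and 2 counts in parotid mesenchyme, and 0 counts in each of the 4 libraries of submandibular mesenchyme. Submandibular epithelium was the group in which every library held at least 1 Shh read. Summed over libraries, that is 0.057 CPM in parotid epithelium (exact Poisson 95% interval 0.019 to 0.133), 0.0998 CPM in submandibular epithelium (0.048 to 0.184) and 0.036 CPM in parotid mesenchyme (0.007 to 0.104), and the 0 counts of submandibular mesenchyme have an exact upper limit of 0.0491 CPM. These intervals cover counting error only.

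With 10 counts in submandibular epithelium and 0 in submandibular mesenchyme, the exact 95% counting interval of the ratio has a lower limit of 1.68 and no upper limit. When no filter on low counts was applied, edgeR's quasi-likelihood test gave this layer difference an adjusted p of 0.0378, and none of the other comparisons passed. Parotid epithelium had 1.61 times the level of parotid mesenchyme, with a counting interval of 0.313 to 10.4, and 0.572 times the level of submandibular epithelium, with an interval of 0.153 to 1.84, so no difference was detectable at this depth in either. Shh shares 15.7% and 12.7% of its exon bases with a pair of genes on the opposite strand, and neither had a count in any library. The library kit does not mark strand, and how shared reads were counted is not given. Whether Shh reads were lost there cannot be told.

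The other ligands were also low. Ihh, the ligand known from cartilage and gut, had at most 0.588 CPM in any library and did not reach the number of reads needed for testing. Dhh, the ligand known from testis and from Schwann cells of nerve, had 0, 1, 0 and 2 counts in parotid epithelium and 32, 46, 49 and 2 counts in parotid mesenchyme. In the submandibular gland it had 2, 1, 0 and 2 counts in epithelium and 19, 13, 20 and 15 counts in mesenchyme. Dhh was therefore mesenchymal in both glands, except that replicate 4 of parotid mesenchyme held no more reads than epithelium. Summed Dhh was 44.6-fold lower in parotid epithelium than in parotid mesenchyme (counting interval 14.9 to 219). It was 17.9-fold lower in submandibular epithelium than in submandibular mesenchyme (7.29 to 56.8). These intervals leave out the spread between libraries, which was large in parotid mesenchyme. By edgeR's test, which uses that spread, Dhh was called lower in epithelium in both glands.

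Schwann lineage markers, which would include cells known to make Dhh, summed to 54.4 ± 27.2 CPM in parotid mesenchyme and 37.2 ± 18.9 CPM in submandibular mesenchyme. Their sum was higher in epithelium, where it came to 549 ± 111 CPM for the parotid gland and 325 ± 91.9 CPM for the submandibular gland, and the list includes Sox10 and Erbb3, which salivary epithelium also transcribes. Its part in the Dhh level was not tested.

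**Figure D1:**
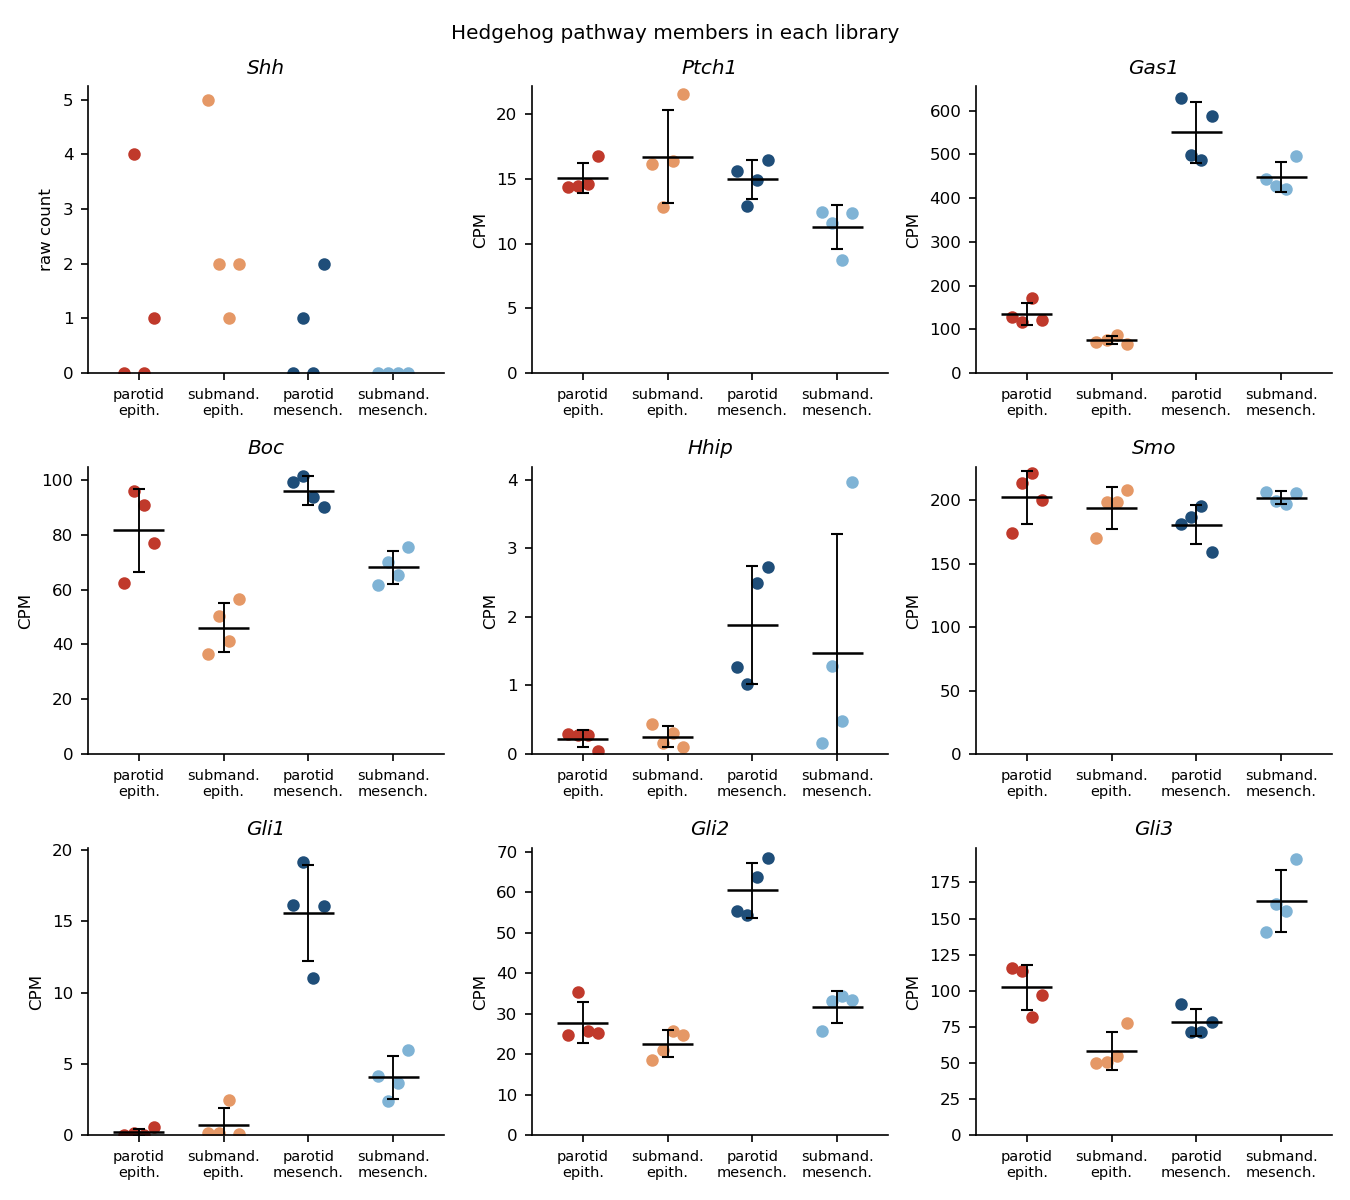
Level of each of the 9 genes in every library, in CPM (raw counts for Shh), with parotid epithelium, submandibular epithelium, parotid mesenchyme and submandibular mesenchyme from left to right. Points are the 4 libraries of a group and bars show the mean ± SD. In the Gas1 panel all libraries of epithelium, at most 171 CPM, lie below those of mesenchyme, at least 421 CPM.

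Ptch1 (ENSMUSG00000021466, chr13:63508328-63573598, minus strand) encodes the receptor that holds Smoothened inactive and is also a target of the signal. Its level was 14.4, 14.5, 14.6 and 16.8 CPM in parotid epithelium, 16.1, 12.9, 16.4 and 21.6 CPM in submandibular epithelium, 15.7, 12.9, 14.9 and 16.4 CPM in parotid mesenchyme, and 12.5, 11.6, 8.76 and 12.4 CPM in submandibular mesenchyme. The libraries of submandibular mesenchyme were the lowest and overlapped with no library of any other group, whereas the other groups overlapped each other. Ptch1 was higher in submandibular epithelium, at 16.7 ± 3.59 CPM, than in submandibular mesenchyme, at 11.3 ± 1.73 CPM (log2 difference 0.57 ± 0.16 SE, edgeR adjusted p = 0.00433). In the parotid gland it averaged 15.1 ± 1.14 CPM in epithelium and 14.98 ± 1.51 CPM in mesenchyme, and the log2 difference of 0.01 ± 0.16 did not pass (edgeR adjusted p = 0.969).

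Between glands, the Ptch1 difference was −0.15 ± 0.16 in epithelium (edgeR adjusted p = 0.526) and 0.41 ± 0.16 in mesenchyme (edgeR adjusted p = 0.0563), and neither passed. The second lies near the threshold: with 1 library left out its adjusted p ranged between 0.0161 and 0.107, and it passed without replicate 1 of parotid epithelium, replicate 2 of parotid mesenchyme, submandibular mesenchyme replicate 1 or 4, or any library of submandibular epithelium. It also passed with a replicate block (edgeR adjusted p = 0.0352), with RLE scaling (0.0316) and with DESeq2 (0.0159). The difference between these gland contrasts was −0.56 ± 0.22 and did not pass either (edgeR adjusted p = 0.0865), although it did without parotid mesenchyme replicate 2 or submandibular epithelium replicate 2, at 0.0246 at the lowest, and with DESeq2, at 0.0322. Ptch1 thus had its highest mean in submandibular epithelium, the group with the lowest mean of Gli2 and Gli3.

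Smo (ENSMUSG00000001761, chr6:29735503-29761365, plus strand), the membrane protein that carries the signal inward, was the steadiest of the 9. It had 174, 213, 222 and 200 CPM in parotid epithelium, 170, 198, 199 and 208 CPM in submandibular epithelium, 182, 187, 195 and 160 CPM in parotid mesenchyme, and 207, 199, 197 and 206 CPM in submandibular mesenchyme. The epithelial groups overlapped each other and both mesenchymal groups, whereas all 4 libraries of parotid mesenchyme were slightly below all 4 of submandibular mesenchyme. Its log2 differences were 0.06 ± 0.09 and −0.16 ± 0.09 between parotid and submandibular epithelium and mesenchyme, and 0.16 ± 0.09 and −0.06 ± 0.09 between epithelium and mesenchyme of the parotid and the submandibular gland. None of them passed, with edgeR adjusted p between 0.114 and 0.663, and all were below 0.2 in size. The parotid layer difference passed without replicate 1 of parotid epithelium (edgeR adjusted p = 0.0344), and the mesenchymal gland difference passed with no scaling beyond library totals (edgeR adjusted p = 0.0240).

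Boc (ENSMUSG00000022687, chr16:44485049-44558897, minus strand) encodes a cell surface coreceptor that binds the ligand beside Patched. It had 62.5, 96.0, 90.8 and 77.0 CPM in parotid epithelium, against 36.4, 50.2, 41.3 and 56.5 CPM in submandibular epithelium. In mesenchyme it had 99.2, 101, 93.6 and 90.1 CPM in parotid and 61.5, 70.1, 65.5 and 75.3 CPM in submandibular tissue. In each layer all 4 parotid libraries exceeded all 4 submandibular ones. The log2 difference between parotid and submandibular gland was 0.82 ± 0.14 in epithelium (edgeR adjusted p = 0.000509) and 0.50 ± 0.14 in mesenchyme (edgeR adjusted p = 0.0101), and these did not differ from each other past the threshold (0.33 ± 0.20, edgeR adjusted p = 0.267).

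Between layers, Boc was lower in submandibular epithelium, at 46.1 ± 8.99 CPM, than in submandibular mesenchyme, at 68.1 ± 5.97 CPM (−0.56 ± 0.14, edgeR adjusted p = 0.00175). In the parotid gland it averaged 81.6 ± 15.1 CPM in epithelium and 96.1 ± 5.16 CPM in mesenchyme, and the difference of −0.24 ± 0.14 did not pass (edgeR adjusted p = 0.142).

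Gas1 (ENSMUSG00000052957, chr13:60174405-60177365, minus strand) encodes a lipid-anchored coreceptor. It had 127, 117.1, 171 and 122 CPM in parotid epithelium, against 71.8, 74.6, 87.6 and 65.4 CPM in submandibular epithelium. In mesenchyme it had 628, 498, 486 and 588 CPM in parotid and 444, 428, 421 and 497 CPM in submandibular tissue. Every epithelial library was below every mesenchymal one, and every parotid epithelial library was above every submandibular epithelial one, while the mesenchymal groups overlapped slightly.

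Gas1 was lower in epithelium, with a log2 difference of −2.03 ± 0.13 in the parotid gland (edgeR adjusted p = 4.12e-10) and −2.58 ± 0.13 in the submandibular gland (edgeR adjusted p = 3.03e-11). Gas1 in epithelium was 24.4% of its mesenchymal level in the parotid gland and 16.7% in the submandibular gland, beside 0.927% and 0.63% for the mesenchymal markers. Between parotid and submandibular epithelium its log2 difference was 0.84 ± 0.12 (edgeR adjusted p = 0.000149), and between parotid and submandibular mesenchyme it was 0.30 ± 0.12 (edgeR adjusted p = 0.0693). The mesenchymal difference passed in 9 of 16 fits with 1 library left out, with adjusted p from 0.0200 to 0.195: those without replicate 1 or 3 of parotid epithelium, replicate 2 or 3 of parotid mesenchyme, submandibular mesenchyme replicate 4, or any library of submandibular epithelium. It also passed with RLE scaling, DESeq2, limma-voom, no filter and the 8 libraries alone, at 0.0271 to 0.0474. The difference between those gland contrasts, 0.54 ± 0.17, passed (edgeR adjusted p = 0.0337), but with 1 library left out it passed in only 4 of 16 fits, those without replicate 2 or 4 of parotid epithelium, replicate 1 of parotid mesenchyme or submandibular epithelium replicate 3, and its adjusted p was at most 0.119. With RLE scaling the adjusted p was 0.0526. A noncoding gene on the opposite strand covers 19.9% of the exon bases of Gas1, and that noncoding gene is not in the deposited count table. The library kit does not mark strand, so reads from the pair cannot be told apart there.

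In bulk tissue, fewer cells that transcribe a gene and less RNA of it per cell cannot be told apart, which holds for every difference given here.

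Hhip (ENSMUSG00000064325, chr8:79965851-80058006, minus strand) encodes a protein that binds and sequesters the ligands and is itself a target of the signal. It was rare throughout, with 0.294, 0.275, 0.284 and 0.048 CPM in parotid epithelium, 0.434, 0.158, 0.314 and 0.107 CPM in submandibular epithelium, 1.27, 1.02, 2.49 and 2.73 CPM in parotid mesenchyme, and 0.158, 1.29, 0.478 and 3.97 CPM in submandibular mesenchyme. The parotid layers were separate, and the submandibular layers overlapped. Hhip was lower in epithelium, with a log2 difference of −3.02 ± 0.77 in the parotid gland (edgeR adjusted p = 0.00244) and −2.52 ± 0.76 in the submandibular gland (edgeR adjusted p = 0.00763). The submandibular call was lost without replicate 4 of submandibular mesenchyme, where the log2 difference was −1.30 with an edgeR adjusted p of 0.0993, and with limma-voom on all libraries (adjusted p = 0.0745). Between parotid and submandibular gland neither the epithelial difference of −0.14 ± 0.87 (edgeR adjusted p = 0.932) nor the mesenchymal difference of 0.36 ± 0.66 (edgeR adjusted p = 0.713) passed.

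Gli1 (ENSMUSG00000025407, chr10:127329882-127341974, minus strand), the activator whose transcription depends on the signal, showed the widest range among the members. It had 0, 0.137, 0 and 0.579 CPM in parotid epithelium, from 0, 3, 0 and 12 counts, and 16.1, 19.2, 11.02 and 16.1 CPM in parotid mesenchyme. In the submandibular gland it had 0.145, 0.158, 2.46 and 0.071 CPM in epithelium, from 4, 4, 47 and 2 counts, and 4.15, 2.37, 3.66 and 5.99 CPM in mesenchyme. The parotid layers were far apart. The submandibular layers overlapped through a single epithelial library, replicate 3, which held 47 of that group's counts.

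The log2 difference of Gli1 between epithelium and mesenchyme was −6.45 ± 1.00 in the parotid gland (edgeR adjusted p = 3.88e-05) and −2.64 ± 0.84 in the submandibular gland (edgeR adjusted p = 0.0114). Gli1 in epithelium was 1.15% of its mesenchymal level in the parotid gland and 17.5% in the submandibular gland, and the submandibular value was 3.08% without replicate 3 of the epithelium, beside a log2 difference of −4.91. The mesenchymal marker sum of that library was 280 CPM, the highest of its group, which ranged from 16.2 CPM. In parotid epithelium the marker sum of replicates 1 to 4 was 139, 73.0, 380 and 333 CPM, beside Gli1 counts of 0, 3, 0 and 12. Whether residual mesenchyme contributed to Gli1 in epithelium was not tested.

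All 4 libraries of parotid mesenchyme had more Gli1 than all 4 of submandibular mesenchyme, at 15.6 ± 3.38 and 4.04 ± 1.498 CPM. The log2 difference was 1.95 ± 0.73 and missed the threshold (edgeR adjusted p = 0.0523). It passed in 11 of 26 alternative analyses, among them a fit to the 8 mesenchymal libraries alone (edgeR adjusted p = 0.000307) and limma-voom (adjusted p = 0.000533). With 1 library left out it passed without parotid epithelium replicate 1 or 4 or any library of submandibular epithelium, with adjusted p between 0.00248 and 0.111. The difference of the gland contrasts, −3.81 ± 1.31, did not pass (edgeR adjusted p = 0.0528), and it passed without parotid epithelium replicate 4, submandibular epithelium replicate 1, 2 or 4, or submandibular mesenchyme replicate 4, and with RLE scaling, DESeq2 or a filter of 1 CPM in 4 libraries, at 0.0466 to 0.0497. Between parotid and submandibular epithelium the difference of −1.86 ± 1.11 did not pass (edgeR adjusted p = 0.254), and without replicate 3 of submandibular epithelium it was 0.46.

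Markers of other cell types also differed between the 2 mesenchymes, and their part in the Gli1 difference was not tested. The direction depended on the cell type. Erythroid markers were higher in submandibular mesenchyme, where they summed to 3142 ± 351 CPM, against 1559 ± 306 CPM in parotid mesenchyme. Endothelial sums, 602 ± 93.8 and 520 ± 111 CPM in the same order, had overlapping libraries. Macrophage sums leaned towards parotid mesenchyme, with 44.3 ± 6.34 and 71.6 ± 17.3 CPM in that order, and overlapped too. Skeletal muscle markers summed to 854 ± 380 CPM in parotid mesenchyme and 198 ± 72.1 CPM in submandibular mesenchyme, neuronal markers to 428 ± 146 and 69.1 ± 62 CPM, smooth muscle and pericyte markers to 454 ± 93.3 and 187 ± 20.2 CPM, and cartilage markers, Sox9 among them, to 197 ± 16.4 and 43.6 ± 15.8 CPM. Replicate 4 of parotid mesenchyme had the lowest muscle sum of its group, 294 CPM, within the range of 142 to 301 CPM of submandibular mesenchyme, and the highest neuronal sum, 612 CPM, against 29.05 to 162 CPM in submandibular mesenchyme. Its Gli1 level was 16.1 CPM.

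Gli2 (ENSMUSG00000048402, chr1:118834132-119053619, minus strand), the main activator of the response in many mouse tissues, had 24.6, 35.3, 25.7 and 25.3 CPM in parotid epithelium, against 18.6, 21.04, 25.7 and 24.7 CPM in submandibular epithelium. In mesenchyme it had 55.3, 54.4, 63.7 and 68.4 CPM in parotid and 25.8, 33.2, 34.3 and 33.5 CPM in submandibular tissue. Parotid mesenchyme stood above every other group without overlap. Gli2 was higher in parotid than in submandibular mesenchyme by 0.93 ± 0.14 on the log2 scale (edgeR adjusted p = 6.61e-05). In epithelium the gland difference of 0.30 ± 0.14 did not pass (edgeR adjusted p = 0.135).

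Between layers, Gli2 was lower in epithelium, with log2 differences of −1.12 ± 0.14 in the parotid gland (edgeR adjusted p = 1.89e-06) and −0.49 ± 0.14 in the submandibular gland (edgeR adjusted p = 0.00496). The submandibular call was lost without replicate 1 of the epithelium, with an edgeR adjusted p of 0.0533. The gland difference was smaller in epithelium than in mesenchyme (−0.63 ± 0.20, edgeR adjusted p = 0.0311), a call that was lost without replicate 3 or replicate 4 of parotid epithelium, where the adjusted p was up to 0.0629, and with no scaling beyond library totals, where it was 0.0531.

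Gli3 (ENSMUSG00000021318, chr13:15463235-15730026, plus strand), the member best known as a repressor in its processed form, had 116, 114, 82.1 and 97.3 CPM in parotid epithelium, against 50.1, 50.5, 54.5 and 77.9 CPM in submandibular epithelium. In mesenchyme it had 90.8, 71.7, 71.4 and 78.0 CPM in parotid and 141, 160, 155 and 192 CPM in submandibular tissue. Parotid epithelium was above submandibular epithelium in every library, and parotid mesenchyme was below submandibular mesenchyme in every library. The log2 difference between parotid and submandibular gland was 0.81 ± 0.15 in epithelium (edgeR adjusted p = 0.000981) and −1.05 ± 0.15 in mesenchyme (edgeR adjusted p = 3.56e-05). The difference between these was 1.86 ± 0.21 (edgeR adjusted p = 7.13e-06), and it passed in each of the 25 alternatives run for it.

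The layer difference of Gli3 also had opposite signs. It was lower in submandibular epithelium, at 58.3 ± 13.2 CPM, than in submandibular mesenchyme, at 162 ± 21.5 CPM (−1.47 ± 0.15, edgeR adjusted p = 1.55e-07). In the parotid gland it was higher in epithelium, at 102 ± 15.7 CPM, than in mesenchyme, at 78.0 ± 9.10 CPM (0.39 ± 0.15, edgeR adjusted p = 0.0276). The parotid layers overlapped and the call was weak: leaving out replicate 1 or 2 of parotid epithelium, replicate 2, 3 or 4 of parotid mesenchyme, or any library of submandibular mesenchyme raised the adjusted p above the threshold, to at most 0.0990.

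**Figure D2:**
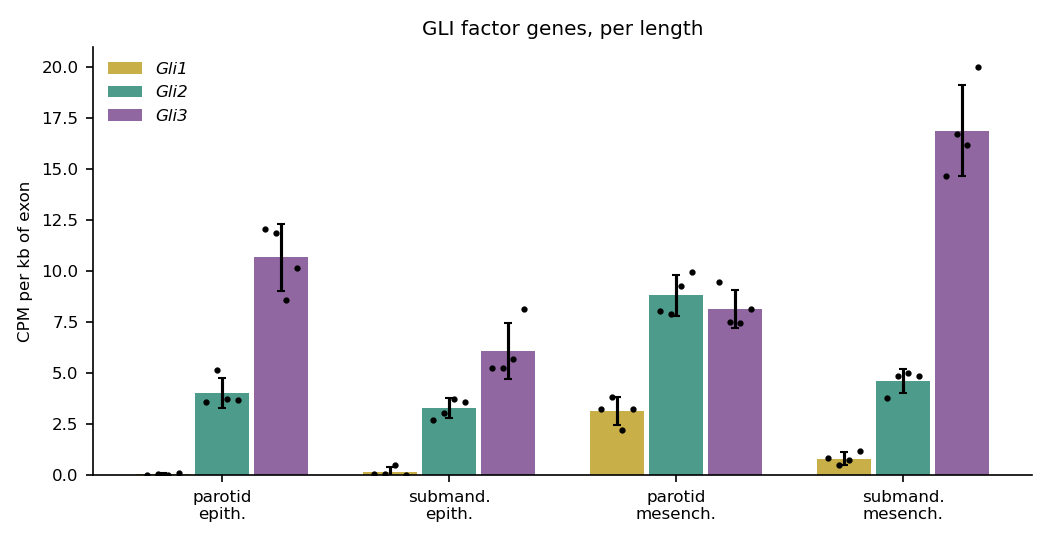
Levels of Gli1, Gli2 and Gli3 per kilobase of exon, in CPM per kilobase, for parotid epithelium, submandibular epithelium, parotid mesenchyme and submandibular mesenchyme, with points for libraries and bars for mean ± SD. Gli3 and Gli2 are close in parotid mesenchyme, with ratios from 0.802 to 1.18, and Gli3 is above Gli2 in every library of the other groups, where the lowest ratio is 1.52.

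Because CPM grow with transcript length, levels were compared between genes per kilobase of annotated exon. Gli3 had 10.7 CPM per kilobase in parotid epithelium, 6.08 in submandibular epithelium, 8.13 in parotid mesenchyme and 16.9 in submandibular mesenchyme, and Gli2 had 4.04, 3.28, 8.80 and 4.61 CPM per kilobase in the same groups. The ratio of Gli3 to Gli2 per kilobase was 2.68 ± 0.504 in parotid epithelium, 1.86 ± 0.316 in submandibular epithelium, 0.935 ± 0.174 in parotid mesenchyme and 3.68 ± 0.396 in submandibular mesenchyme (SD, n = 4 each). The libraries of parotid mesenchyme, from 0.802 to 1.18, did not overlap with those of submandibular mesenchyme, from 3.24 to 4.10. Per kilobase, Gas1 was the most abundant of the members in mesenchyme, at 186 in parotid and 151 in submandibular tissue, and Smo ranged from 32.2 to 36.0 over the groups, whereas Ptch1 stayed between 0.796 and 1.18.

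**Figure D3:**
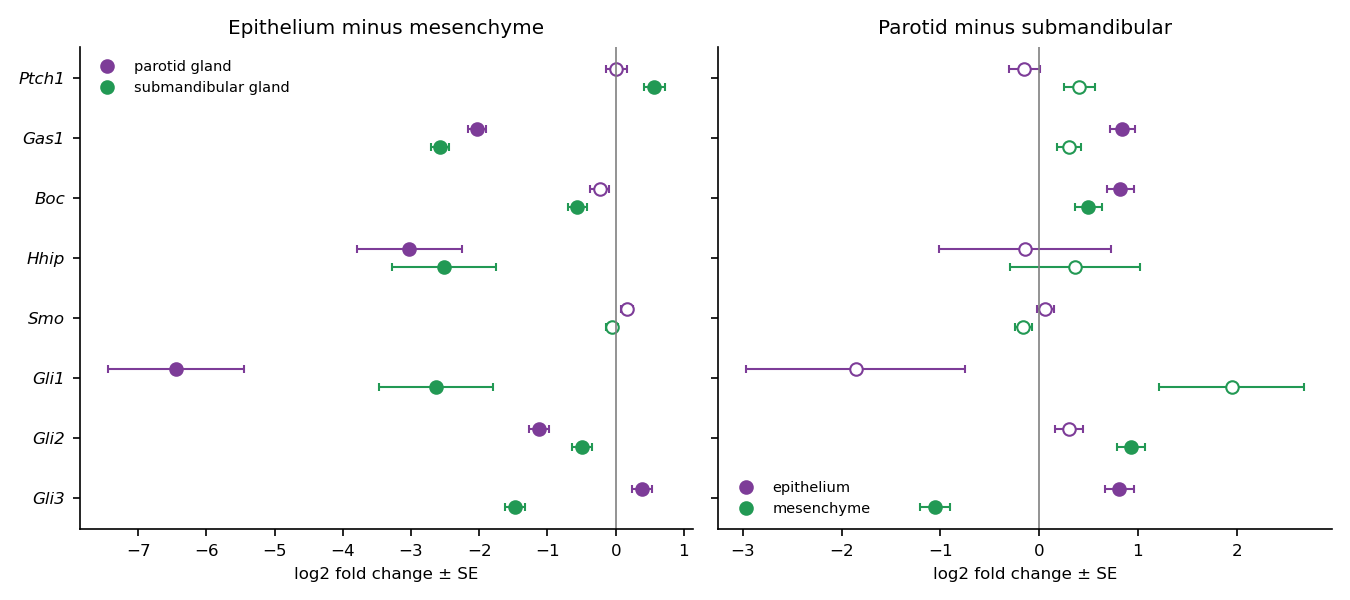
Log2 fold change with its standard error for the 8 tested members in the 4 contrasts, parotid over submandibular and epithelium over mesenchyme, on a linear axis of log2 units; filled points passed the test at an adjusted p of 0.05 and open points did not. Gli3 has opposite signs in the gland contrasts of the layers, 0.81 in epithelium and −1.05 in mesenchyme.

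Counted over the 8 tested members, 3 were higher and 0 lower in parotid than in submandibular epithelium, where 21.1% of all tested genes were called, 12% higher and 9.17% lower, and the median log2 difference was 0.18 for members and 0.01 for all genes. In mesenchyme 2 were higher and 1 lower in parotid than in submandibular tissue, with 34.1% of all genes called, 18.1% higher and 16% lower, and medians of 0.39 and −0.02. Between epithelium and mesenchyme 1 was higher and 4 lower in the parotid gland, where 64.9% of all genes were called, 31.6% higher and 33.3% lower, with medians of −0.68 and 0.00. In the submandibular gland 1 was higher and 6 lower in epithelium, where 66.4% of all genes were called, 30.9% higher and 35.5% lower, with medians of −1.02 and −0.05. For the difference of the gland contrasts between layers 2 were higher and 1 lower, beside 20.7% of all genes, 10.4% higher and 10.3% lower. The gland contrasts and the layer contrasts use the same libraries, so these counts are not independent. With 1 library left out the mesenchymal gland count was 3 to 6: it was 6 without parotid epithelium replicate 1 or any library of submandibular epithelium, and 5 without parotid mesenchyme replicate 2 or submandibular mesenchyme replicate 4. The count for the difference of the gland contrasts was 1 without parotid epithelium replicate 3. The libraries of both groups were separate for 3 of 8 members between the epithelia, where 20.4% of all genes were separate, and for 6 of 8 between the mesenchymes, beside 36.6%. They were separate for 4 of 8 between the parotid layers, beside 57.7%, and for 5 of 8 between the submandibular layers, beside 62.4%.

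The other genes of the pathway were counted from a list of 57, of which 52 were tested. Between epithelium and mesenchyme 9 were higher and 26 lower in the parotid gland, or 67.3% called, and 7 were higher and 30 lower in the submandibular gland, or 71.2%. Between parotid and submandibular tissue 10 were higher and 5 lower in epithelium, or 28.8%, and 10 were higher and 10 lower in mesenchyme, or 38.5%. The total shares lie near those of all genes given above. By direction, epithelium had 17.3% of the list higher and 50% lower than mesenchyme in the parotid gland, beside 31.6% and 33.3% of all genes. In the submandibular gland epithelium had 13.5% of the list higher and 57.7% lower than mesenchyme, beside 30.9% and 35.5% of all genes. The list includes genes chosen because they respond to hedgehog signals in mesenchyme, which bears on the direction.

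Among genes for making and releasing the ligand, Scube1, a secreted relative of the protein that helps release hedgehog from cells, was mesenchymal. It averaged 2.44 ± 1.78 CPM in parotid epithelium and 279 ± 65.8 CPM in parotid mesenchyme (log2 difference −6.84, edgeR adjusted p = 1.21e-08), and 1.07 ± 0.919 CPM in submandibular epithelium and 533 ± 78.9 CPM in submandibular mesenchyme (−9.03, edgeR adjusted p = 1.72e-09). Among coreceptors, Lrp2, a large endocytic receptor, was higher in submandibular epithelium than in submandibular mesenchyme (4.78, edgeR adjusted p = 1.36e-05). Its level was low in both, at 1.26 ± 0.559 CPM in epithelium and 0.04 ± 0.0267 CPM, from 3 counts, in mesenchyme. Gpr161, a ciliary receptor that restrains the pathway, was higher in parotid than in submandibular mesenchyme, at 48.4 ± 8.14 and 20.03 ± 3.58 CPM (1.27, edgeR adjusted p = 2.76e-06). The 24 tested transduction genes had 3 higher and 11 lower members in parotid epithelium than in parotid mesenchyme, and 2 higher and 14 lower in submandibular epithelium than in submandibular mesenchyme. The share called was 58.3% and 66.7%, beside 64.9% and 66.4% of all tested genes.

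A further 17 tested genes, listed because they respond to hedgehog signals in mesenchyme of other organs, were mostly lower in epithelium: 4 were higher and 10 lower in the parotid gland, with a median log2 difference of −2.73, and 3 were higher and 11 lower in the submandibular gland, with a median of −1.71. Those called lower were 58.8% of the 17 in the parotid and 64.7% in the submandibular gland, beside 33.3% and 35.5% of all tested genes, and the median over all genes was 0.00 and −0.05. Foxf1, a forkhead factor of gut and lung mesenchyme, had log2 differences between epithelium and mesenchyme of −4.93 in the parotid and −5.09 in the submandibular gland, and those of the bHLH factor Hand2 were −5.75 and −5.66. In parotid and submandibular epithelium these rested on 2 and 9 counts of Foxf1 and on 5 and 22 counts of Hand2. The list also holds Foxq1, a forkhead factor that was instead higher in epithelium, by 3.51 and by 6.11. Many of these genes are regulated by other signals as well. Because they were chosen for a response in mesenchyme, lower levels in epithelium are in part built in and do not measure the signal.

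Between the mesenchymes the same 17 genes were split, with 3 higher and 5 lower in parotid than in submandibular tissue. These were 17.6% and 29.4% of the list, beside 18.1% higher and 16% lower among all tested genes. Osr2, a zinc finger factor of palate and jaw mesenchyme, was higher in parotid than in submandibular mesenchyme, at 429 ± 51.8 and 104 ± 12.2 CPM (2.04), and so were the cyclin Ccnd2, at 750 ± 80.9 and 303 ± 7.64 CPM (1.31), and the chemokine Cxcl14, at 142 ± 40.5 and 0.477 ± 0.443 CPM (8.23). Hand2 was lower in parotid than in submandibular mesenchyme, at 3.41 ± 0.504 and 11.95 ± 3.31 CPM (−1.81), and so were the secreted Wnt inhibitor Sfrp1, at 309 ± 76.6 and 943 ± 70 CPM (−1.61), and Foxf1, at 0.868 ± 1.11 and 3.32 ± 2.24 CPM (−1.92, edgeR adjusted p = 0.0486). Apart from Foxf1, the highest edgeR adjusted p of the genes named in this contrast was 0.00584.

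In epithelium, 4 of the 17 were higher and 3 lower in parotid than in submandibular tissue. These were 23.5% and 17.6% of the list, beside 12% higher and 9.17% lower among all tested genes. The zinc finger factor Osr1 averaged 31.02 ± 9.71 CPM in parotid epithelium, against 4.15 ± 0.840 CPM in submandibular epithelium (log2 difference 2.91), and the T-box factor Tbx2 averaged 34.8 ± 8.69 CPM in parotid epithelium, against 2.38 ± 2.15 CPM in submandibular epithelium (3.94). Its relative Tbx3 differed the other way, at 2.89 ± 1.47 CPM in parotid epithelium and 63.3 ± 18.3 CPM in submandibular epithelium (−4.46), and so did the ligand Bmp4, at 0.294 ± 0.389 and 3.20 ± 1.06 CPM in the same groups (−3.44). The highest edgeR adjusted p of these 4 genes was 0.000620.

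**Figure D4:**
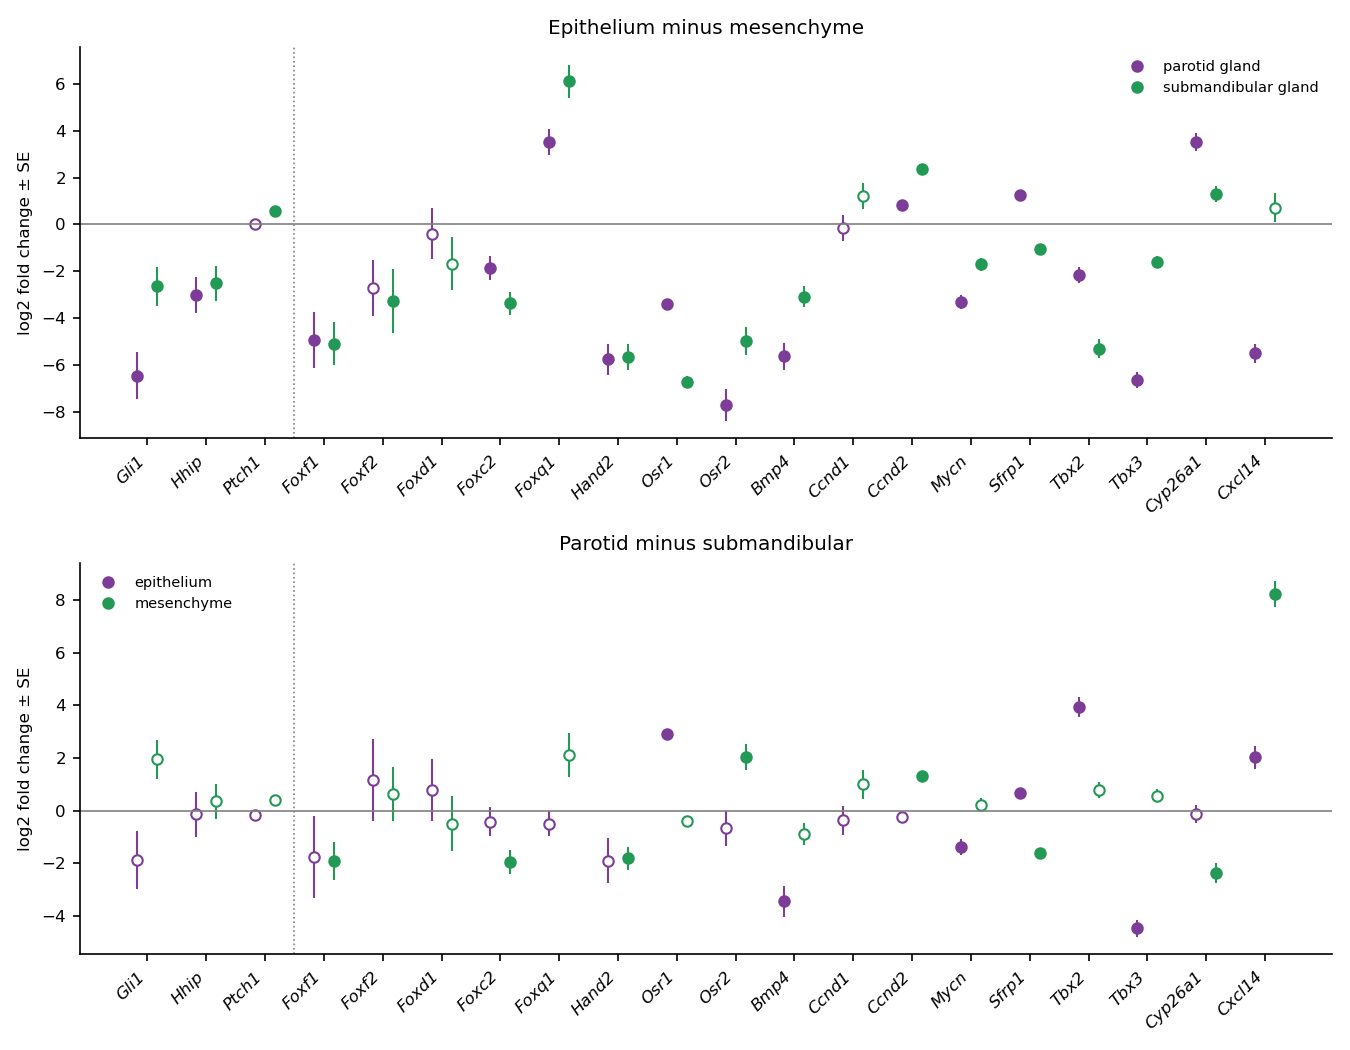
Log2 fold changes of epithelium over mesenchyme in each gland, above, and of parotid over submandibular gland in each layer, below, for Gli1, Hhip and Ptch1, left of the dotted line, and for the listed responsive genes, right of it, with standard errors; filled points passed the test and open points did not. The responsive genes lie on both sides of 0 between the mesenchymes, from Cxcl14 at 8.23 down to Cyp26a1 at −2.36.

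The 4 genes whose group profile was most like that of Ptch1, among 12763 genes that reached a group mean of 5 CPM,, were Mpv17l2, Ptrhd1, Zc3h12c and Cnp. Likeness was the root mean square distance between profiles of log2 (CPM + 1) over the 4 groups, each centred on its own mean. It was 0.0139, 0.0184, 0.0203 and 0.0282 for these genes. As many as 3124 genes lay within 0.25 of Ptch1, so the nearest genes carry little distinction. For Gli1, which was added after its values were seen, 30 genes lay within 0.25 and the nearest were Hpse at 0.126, Thsd7a at 0.136, Klhl31 at 0.143 and Tpm2 at 0.148. Shh was too low to be compared in this way.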

How the data were processed

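Per the labels' protocols, RNA was isolated with TRIzol and libraries were made with SMART-Seq v4 and Nextera XT kits, which do not mark strand, and were read on a NextSeq instrument. STAR 2.5.2a, edgeR and the build GRCm38 (mm10) are named in the submitters' processing notes, while for read counting and annotation the source is not given in the sources used here. Raw counts per gene were deposited by the authors, as was a normalized signal that their table names as CPM. CPM recomputed here from counts and TMM factors differed from the deposited CPM of the members by at most 3.11%.

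The members and lists were chosen with earlier results of these data known. All 9 members were named in every comparison; other pathway genes were named when called by at least 2-fold between glands or 4-fold between layers, with Ihh and Dhh always; 1 further item is not reported here; a few named otherwise were chosen after their values were seen. ERCC spike-ins (92 features) were left out. The 18191 genes kept by filterByExpr were fitted with edgeR 4.0.16 (robust quasi-likelihood, R 4.3.3), with 1 coefficient for each of 4 groups over 16 libraries and 5 contrasts, and p-values were adjusted by Benjamini-Hochberg over all of them at 0.05. Errors of CPM are SD and those of log2 differences SE. The procedure was tested on simulated data. The labels call the replicates independent; p-values measure the spread between these libraries. Exon lengths and coordinates came from GENCODE M21. As alternatives, fits were repeated with DESeq2 1.42.0, with limma-voom 3.58.1, with other scalings and filters, the compared libraries alone, a replicate block, each library left out, and, chosen after seeing the data, leaving out 2 epithelial libraries with most erythroid counts.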

Additional observations from a re-analysis of the deposited data

Results flagged for a closer look

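Within groups of 4 libraries, 6 levels had 1 library far from the other 3, by a gap past the 95% critical value of Dixon's test, and chance gives about 1 such case in 20 groups. The highest was far from the rest for Ptch1 in parotid epithelium (16.8 CPM), Gli1 in submandibular epithelium (2.46 CPM), Gli2 in parotid epithelium (35.3 CPM) and Gli3 in submandibular epithelium (77.9 CPM). The lowest was far from the rest for Gli2 in submandibular mesenchyme (25.8 CPM) and for Hhip in parotid epithelium (0.0482 CPM). The Hhip case is 1 count in replicate 4 beside 7, 6 and 6 counts in replicates 1 to 3, so it rests on few reads.

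The difference between parotid and submandibular gland was itself different in epithelium and in mesenchyme for 3 members by edgeR's quasi-likelihood test of that difference: −0.63 for Gli2, 1.86 for Gli3 and 0.54 for Gas1 on the log2 scale.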

How the results depend on the processing

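Of 21 member values that passed the test, 16 passed in every alternative, and of 19 that did not, 12 passed in none; no value that passed changed sign when it was recomputed. The count of genes called between parotid and submandibular epithelium was 3847, 2431 to 4542 when 1 library was left out (lowest without submandibular epithelium replicate 1), and 1863 without the 2 epithelial libraries with most erythroid counts. The count of members called between parotid and submandibular mesenchyme was 3, and 6 with RLE scaling, 5 with DESeq2, 5 with limma-voom, 5 with the 8 compared libraries, and 3 to 6 with 1 library left out. For the difference of the gland contrasts it was 3, 5 with DESeq2, and 1 to 4 with 1 library left out, lowest without parotid epithelium replicate 3.

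Signs that changed belonged to values that did not pass. Between parotid and submandibular epithelium, Smo was −0.00699 with upper quartile scaling and −0.0171 to 0.114 with 1 library left out, Gli1 was −3.68 to 0.46 and Hhip −0.41 to 0.27 with 1 left out, and Hhip was 0.61 without the 2 erythroid-rich libraries. Between parotid epithelium and mesenchyme, Ptch1 was −0.0346 with RLE scaling, −0.0350 with DESeq2, −0.00849 with no filter, −0.0219 with the 8 libraries, −0.0476 without the erythroid-rich libraries, and −0.0546 to 0.0496 with 1 left out. Between submandibular epithelium and mesenchyme, Smo was −0.0605 to 0.0700 with 1 left out. For the difference of the gland contrasts, Hhip was 0.24 without the erythroid-rich libraries. The cause was not tested.

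Same-numbered libraries deviated together by a correlation over 0.1 in 4 of 24 pairs (−0.147 to 0.308). The best match of a library in another group carried its own number in 8 of 24 cases, and in 3 of 4 between the submandibular layers. With 4 candidates for each library, some such matches arise by chance. In submandibular epithelium, unlike the other groups, the replicate numbers do not follow the order of the library names. Whether the numbers mark a shared origin of libraries is therefore not settled. A replicate block gave 3 members and 4017 genes called between the epithelia, 4 (with Ptch1 added) and 6280 between the mesenchymes, 5 and 11788 between the parotid layers, 7 and 12091 between the submandibular layers, and 3 and 3812 for the difference. With no scaling beyond totals the median of all genes was −0.14 between the mesenchymes and −0.10 between the submandibular layers. Depth limits Shh, Ihh, Dhh, Hhip, Lrp2 and epithelial Gli1, Foxf1 and Hand2, which rest on few counts.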
